A study of Homo sapiens with 6 samples.

Results

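Histone deacetylases, sirtuins, lysine acetyltransferases and BET readers were compared between drug-tolerant and parental cells of WM164, a BRAF-mutant melanoma line grown from a lymph node metastasis. The rule took 32 gene names. It kept each probe set (the group of probes that reports a gene) annotated with exactly 1 of these symbols and, per gene, the probe set with the highest mean over the arrays. This gave 31 of the 18417 genes in the whole table, and NCOA3 was not analysed here. Drug-tolerant cells (IDTC in the labels, 3 samples) were WM164 given PLX4032 (vemurafenib, an inhibitor of mutant BRAF) at 500 nM for 16 days. Parent cells (3 samples) were WM164 given DMSO, for a time the labels do not state. All 6 samples came from this cell line, were kept in triplicate and had their RNA isolated separately. Whether the cultures were separate experiments is not stated, and each p-value therefore rests on a spread between samples that may be technical.

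Acetyl groups on lysines of histone tails loosen chromatin and are bound by bromodomains. Acetyltransferases write the mark using acetyl-CoA. Zinc-dependent deacetylases (HDAC classes I, II and IV) and the NAD-dependent sirtuins remove it, from histones and from many other proteins. BET proteins read it through paired bromodomains and help RNA polymerase II to start elongation. In melanoma, HDAC and BET inhibitors have been studied as partners of BRAF inhibitors, and drug-tolerant states have been tied to altered chromatin.

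Expression is given as the authors' normalized log2 value, so a difference of 1 is 2-fold, and the level of a gene is not ranked against that of another because each probe set has its own response. Within-array differences between genes are used only to compare their changes, and a gene's place among all mean log2 values only to say how bright its probe set was. Differences are IDTC minus Parent with their standard error. A gene was called, and is said to have risen or fallen, at an adjusted p (limma over all genes, Benjamini-Hochberg) under 0.05. The correlation between arrays over all genes was 0.995 to 0.998 within a group and 0.953 to 0.957 across groups. All 12 genes listed as outputs of the MAPK pathway fell (median -1.31 on the log2 scale). Of 6 melanocyte markers measured, 5 rose and none fell. Of 30 markers of keratinocytes, fibroblasts, endothelium and immune cells, 2 rose, 4 fell and 24 were not called. The mean log2 level of these markers ranged from 5.55 to 5.63 over the IDTC arrays and from 5.65 to 5.76 over the Parent arrays, and their part in the results below was not tested. Among those that fell, the immune marker LYZ fell by 3.03 ± 0.09, and the immune marker CD68 and the fibroblast marker LUM fell by 0.76 ± 0.05 and 0.89 ± 0.14. These markers were named after their values were seen.

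In the drug-tolerant cells 19 of the 31 genes rose, 7 fell and 5 were not called. The 4 that rose by 2-fold or more were the deacetylase genes HDAC6, SIRT2 and HDAC5 and the acetyltransferase gene KAT2B. The lowest were HDAC2, HAT1 and HDAC4, at fold changes under 2. Over all genes 46.6% were called, with 21.7% higher and 24.9% lower, and 9.21% were called at 2-fold or more. In RNA of whole cultures, fewer cells of a type and less RNA per cell cannot be told apart. The median log2 fold change was 0.29 over the 31 genes and -0.01 over all genes, and the median absolute change was 0.42 against 0.21. The 31 genes were brighter than most, with a median at percentile 71.5 of mean log2 level, and bright genes were called more often. Without the dimmest 40% of genes, 29 of the 31 were left, of which 17 rose and 8 fell, while 69.2% of the 11050 genes left were called, 29.6% higher and 39.6% lower. IDTC and Parent arrays did not overlap for 30 of the 31 genes, with the exception of HDAC10, and for 54.1% of all genes.

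**Figure D1:**
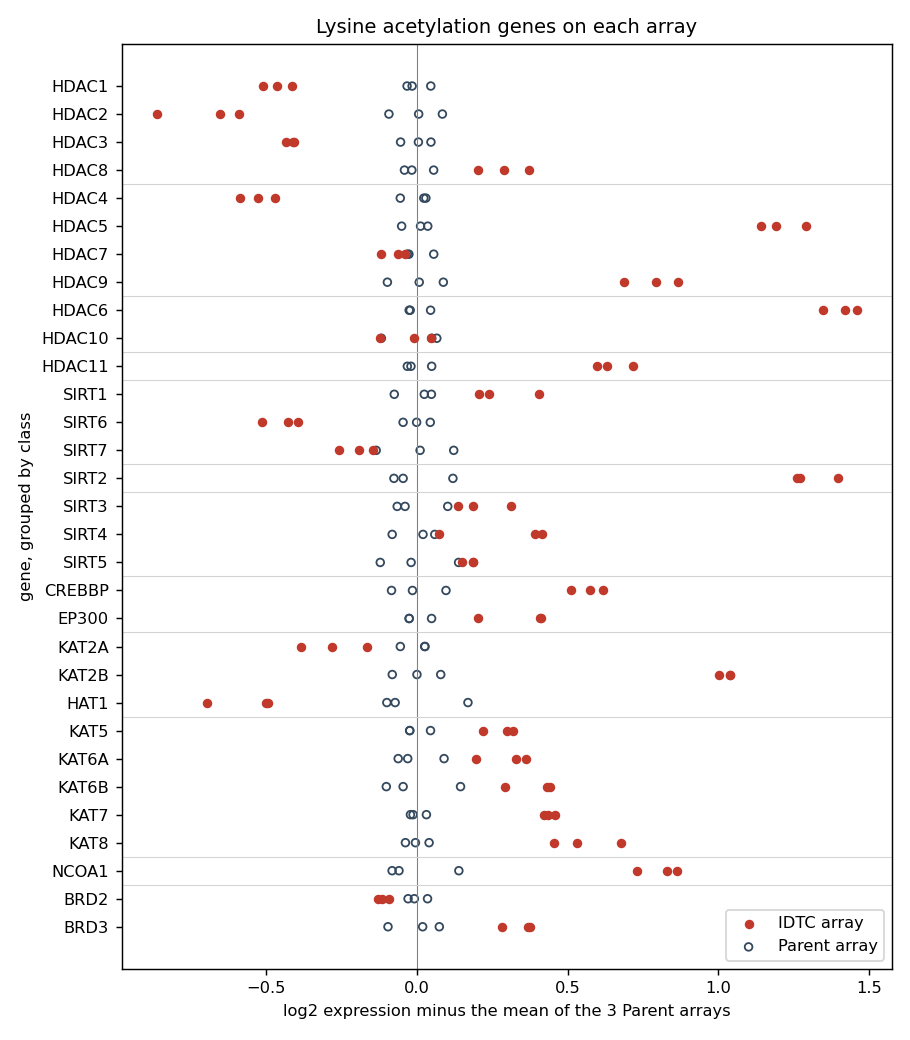
Log2 expression of the 31 genes on each array, as the difference from the mean of the 3 Parent arrays (x axis), with genes grouped by class down the page. Filled red points are IDTC arrays and open points Parent arrays. On average the IDTC arrays of HDAC6, SIRT2, HDAC5 and KAT2B lie farthest to the right and those of HDAC2 and HAT1 farthest to the left. Those of HDAC10 overlap the Parent arrays.

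Stretches of promoter are shown for genes at both ends of the range that have 1 start in the RefSeq promoter table, namely KAT2B and SIRT2, which rose, and HDAC2 and HAT1, which fell. Each is the 100 bases just before the start, 5′ to 3′ on the gene's strand, in build GRCh38.p14. The KAT2B stretch is chr3:20040346-20040445 (plus strand), that of SIRT2 chr19:38899619-38899718 (minus strand), that of HDAC2 chr6:113971149-113971248 (minus strand) and that of HAT1 chr2:171922361-171922460 (plus strand). Capitals mark matches on either strand to the motifs searched below.
KAT2B: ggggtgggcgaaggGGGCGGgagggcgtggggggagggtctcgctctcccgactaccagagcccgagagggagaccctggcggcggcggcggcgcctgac
SIRT2: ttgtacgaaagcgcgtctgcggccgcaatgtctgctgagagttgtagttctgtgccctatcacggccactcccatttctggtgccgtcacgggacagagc
HDAC2: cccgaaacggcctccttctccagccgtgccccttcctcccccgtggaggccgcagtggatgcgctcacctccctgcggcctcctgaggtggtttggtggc
HAT1: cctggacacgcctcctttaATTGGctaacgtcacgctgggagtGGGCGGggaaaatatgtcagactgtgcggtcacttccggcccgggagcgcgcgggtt
The KAT2B stretch holds a GC box and the HAT1 stretch a CCAAT box (read on the opposite strand as ATTGG) and a GC box, while the stretches of SIRT2 and HDAC2 hold none of the letters searched.

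Of the 31 genes, 27 had an entry in the promoter table, with 48 windows of 250 bases before a start. A GC box (GGGCGG, either strand) was found in 54.2% of these windows and in 42.6% of the 35116 windows of all genes. The CCAAT box (CCAAT) was found in 25% of the windows of these genes and in 32% of all windows, the E-box (CACGTG) in 6.25% and 6.34%, and the cyclic AMP response element (TGACGTCA) in 2.08% and 1.65%. Letters typical of E2F sites (TTTGGCGC, TTTCGCGC or TTTCCCGC) were found in 2.08% and 2.32%, and among these genes only in a window of SIRT6. None of the motifs contains another. Windows of the same gene can overlap, so the shares are a description.

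Class I deacetylases are the catalytic subunits of nuclear corepressor complexes, and 3 of the 4 genes fell. Of all genes 24.9% fell, and of those left without the dimmest 40%, 39.6%. HDAC2, which shares the SIN3, NuRD and CoREST complexes with HDAC1, measured 9.49, 9.43 and 9.22 in the IDTC arrays, against 10.17, 10.09 and 9.99 in the Parent arrays. It fell by 0.70 ± 0.09 (adjusted p = 0.000367), to 0.615 of the Parent level. HDAC1 measured 10.47, 10.42 and 10.38 in IDTC arrays and 10.87, 10.85 and 10.93 in Parent arrays, and fell by 0.46 ± 0.05 (adjusted p = 0.0003). For both genes every IDTC array lay below every Parent array. HDAC3, the enzyme of the NCOR and SMRT complexes, averaged 9.69 ± 0.01 in IDTC and 10.10 ± 0.05 in Parent arrays (SD, n = 3 each) and fell by 0.42 ± 0.05. HDAC8, which works outside these complexes and deacetylates the cohesin subunit SMC3, was the member that rose. It measured 9.12, 9.21 and 9.04 in IDTC arrays, against 8.89, 8.82 and 8.79 in Parent arrays, an increase of 0.29 ± 0.06 (adjusted p = 0.00727).

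Class IIa deacetylases shuttle between nucleus and cytoplasm, bind MEF2 transcription factors and have little catalytic activity of their own. The genes of this class went in different directions. HDAC5 measured 8.44, 8.54 and 8.39 in the IDTC arrays, against 7.20, 7.29 and 7.26 in the Parent arrays, and rose by 1.21 ± 0.06 (2.31-fold, adjusted p = 4.15e-06). All its IDTC arrays lay more than 1 log2 unit above all its Parent arrays. HDAC9, best known from muscle and immune cells, measured 6.42, 6.34 and 6.24 in IDTC and 5.45, 5.56 and 5.64 in Parent arrays, and rose by 0.78 ± 0.07 (1.72-fold, adjusted p = 8.73e-05). Its probe set was dim, at percentile 33.1 of mean log2 level, and there is no detection call. HDAC4, a close relative of HDAC5, moved the other way. It measured 6.99, 6.94 and 6.88 in IDTC arrays, against 7.41, 7.49 and 7.50 in Parent arrays, and fell by 0.53 ± 0.06 (adjusted p = 0.000189). HDAC7 averaged 7.51 ± 0.04 in IDTC and 7.58 ± 0.05 in Parent arrays and was not called (adjusted p = 0.332).

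HDAC6, a cytoplasmic class IIb enzyme that deacetylates alpha-tubulin, cortactin and HSP90, had the largest change of the 31 genes. It measured 8.49, 8.53 and 8.41 in the IDTC arrays, against 7.04, 7.05 and 7.11 in the Parent arrays. The increase was 1.41 ± 0.06 (2.65-fold, adjusted p = 1.63e-06), and the gap between the groups was far wider than the spread within either. HDAC10, the other class IIb gene, encodes a polyamine deacetylase. Its values of 8.01, 8.07 and 7.90 in IDTC arrays overlapped those of 7.90, 8.07 and 8.09 in Parent arrays, and it was not called (-0.03 ± 0.07, adjusted p = 0.8). HDAC11, the only class IV gene, encodes an enzyme that mainly removes fatty acyl groups. It measured 7.42, 7.34 and 7.30 in IDTC and 6.68, 6.67 and 6.75 in Parent arrays and rose by 0.65 ± 0.06 (1.57-fold, adjusted p = 6.53e-05). Among all 11 HDAC genes 5 rose (45.5%), 4 fell (36.4%) and 2 were not called. Over all genes 21.7% rose and 24.9% fell. Without the dimmest 40% of genes these shares were 29.6% and 39.6%.

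Of the 7 sirtuin genes 4 rose, 1 fell and 2 were not called. The share called, 71.4%, stands beside 46.6% of all genes. A separate fit without the dimmest 40% of genes, in which 69.2% were called, leaves out SIRT4. Of the sirtuins left in that fit only SIRT5 was not called (limma adjusted p = 0.056). SIRT2, the mainly cytosolic sirtuin, which deacetylates alpha-tubulin and, in mitosis, histone H4, measured 9.95, 9.94 and 10.08 in the IDTC arrays, against 8.80, 8.61 and 8.64 in the Parent arrays. It rose by 1.31 ± 0.07 (2.48-fold, adjusted p = 6.63e-06), with every IDTC array more than 1 log2 unit above every Parent array. The nuclear sirtuins were split. SIRT1, which deacetylates p53 and other factors, measured 8.16, 8.32 and 8.12 in IDTC and 7.94, 7.97 and 7.84 in Parent arrays and rose by 0.28 ± 0.07 (adjusted p = 0.0139, and 0.058 without Parent 3). SIRT6, a histone H3 deacetylase that acts in DNA repair and represses glycolysis genes, measured 7.28, 7.20 and 7.32 in IDTC arrays, against 7.71, 7.66 and 7.75 in Parent arrays, and fell by 0.44 ± 0.06 (adjusted p = 0.000492). The groups were apart for both genes, in opposite directions. SIRT7, a nucleolar sirtuin tied to ribosomal RNA transcription, averaged 6.87 ± 0.06 in IDTC and 7.07 ± 0.13 in Parent arrays and was not called (adjusted p = 0.074). It was called lower without Parent 1 (0.0226), after re-centring on array medians (0.0401) and without the dimmest 40% of genes (0.0425).

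Changes of the mitochondrial sirtuin genes were small. SIRT3, the main protein deacetylase of mitochondria, measured 8.34, 8.39 and 8.52 in IDTC arrays and 8.14, 8.17 and 8.31 in Parent arrays, an increase of 0.21 ± 0.07 (adjusted p = 0.0486). SIRT4, which removes lipoyl and related groups from mitochondrial enzymes, measured 5.25, 5.60 and 5.57 in IDTC arrays, against 5.20, 5.10 and 5.24 in Parent arrays, an increase of 0.29 ± 0.10 (adjusted p = 0.0467). The SIRT4 probe set was dim, at percentile 22.5 of mean log2 level. The markers of other cell types had a median at percentile 25.2, and there is no detection call. SIRT5, a desuccinylase, averaged 6.56 ± 0.02 in IDTC and 6.38 ± 0.13 in Parent arrays and was not called (adjusted p = 0.0948). It was called higher without Parent 2 (0.0271) and after re-centring on the annotated genes (0.0331) or quantile normalization over them (0.0289). The first IDTC array of SIRT4 lay next to the highest Parent array. The calls of SIRT3 and SIRT4 stood just inside the threshold. That of SIRT3 was lost without IDTC 2 (0.0934), IDTC 3 (0.106), Parent 1 (0.131) or Parent 2 (0.143), and that of SIRT4 without IDTC 2 (0.15), IDTC 3 (0.124), Parent 1 (0.0935), Parent 2 (0.148) or Parent 3 (0.0838).

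All 11 measured genes of the acetyltransferase families and their coactivators were called, with 9 higher and 2 lower. Of all genes 46.6% were called, and of those left without the dimmest 40%, which include these 11, 69.2%. The shares called higher were 21.7% and 29.6%. CREBBP and EP300 encode CBP and p300, broad coactivators that acetylate histone H3 at enhancers. CREBBP measured 9.71, 9.75 and 9.65 in the IDTC arrays, against 9.23, 9.05 and 9.12 in the Parent arrays, and rose by 0.57 ± 0.07 (1.48-fold, adjusted p = 0.000264). EP300 measured 9.38, 9.38 and 9.17 in IDTC and 9.02, 8.94 and 8.94 in Parent arrays, and rose by 0.34 ± 0.07 (1.27-fold, adjusted p = 0.0062). For both genes the IDTC arrays lay above the Parent arrays. NCOA1, a steroid receptor coactivator that recruits CBP and p300, measured 9.61, 9.57 and 9.47 in IDTC arrays, against 8.88, 8.66 and 8.69 in Parent arrays, and rose by 0.81 ± 0.08 (1.75-fold, adjusted p = 9.22e-05).

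KAT2A and KAT2B encode GCN5 and PCAF, which take the same place in the SAGA and ATAC complexes. KAT2B measured 10.41, 10.42 and 10.38 in the IDTC arrays, against 9.46, 9.30 and 9.38 in the Parent arrays, and rose by 1.03 ± 0.06 (2.04-fold, adjusted p = 7.92e-06). KAT2A measured 8.73, 8.51 and 8.61 in IDTC arrays, against 8.84, 8.92 and 8.92 in Parent arrays, and fell by 0.28 ± 0.07 (adjusted p = 0.0141). Its call was lost without Parent 2 (0.0542), without Parent 3 (0.0553) and after quantile normalization over all probe sets (0.0551) or over the annotated genes (0.0819), while the IDTC arrays lay below the Parent arrays. HAT1 acetylates newly made histone H4 before it is laid down behind the replication fork. It measured 9.67, 9.68 and 9.48 in IDTC arrays, against 10.34, 10.10 and 10.07 in Parent arrays, and fell by 0.56 ± 0.09 (0.678 of the Parent level, adjusted p = 0.00185). All 23 genes listed for DNA replication fell as well, 22 of them by 2-fold or more (median -1.66), and their part in the result for HAT1 was not tested.

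The 5 MYST acetyltransferase genes all rose, by 0.28 to 0.56. Of all genes 21.7% rose, and of those left without the dimmest 40%, 29.6%. KAT8 encodes MOF, which acetylates histone H4 in the MSL and NSL complexes. It measured 8.04, 7.82 and 7.90 in the IDTC arrays, against 7.33, 7.36 and 7.41 in the Parent arrays, and rose by 0.56 ± 0.07 (1.47-fold, adjusted p = 0.000414). KAT7 encodes HBO1, which takes part in replication licensing and works with JADE and BRPF subunits. It measured 9.51, 9.52 and 9.55 in IDTC and 9.08, 9.07 and 9.12 in Parent arrays, and rose by 0.44 ± 0.05 (adjusted p = 0.000235), unlike the replication genes above. KAT6B rose by 0.39 ± 0.08 and its paralogue KAT6A by 0.30 ± 0.07; they encode MORF and MOZ, which acetylate histone H3. KAT5 encodes TIP60, the enzyme of the NuA4 complex, and rose by 0.28 ± 0.06, with means of 8.65 ± 0.05 in IDTC and 8.37 ± 0.04 in Parent arrays. In each of these genes all IDTC arrays lay above all Parent arrays.

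Of the BET reader genes BRD2 and BRD3, only BRD3 was called. BRD3 measured 8.05, 8.05 and 7.96 in the IDTC arrays, against 7.58, 7.75 and 7.70 in the Parent arrays, and rose by 0.34 ± 0.06 (1.27-fold, adjusted p = 0.0033). BRD2 measured 9.89, 9.86 and 9.85 in IDTC arrays, against 10.02, 9.97 and 9.95 in Parent arrays, and was not called (-0.11 ± 0.05, adjusted p = 0.113). Its IDTC arrays all lay below its Parent arrays, by a small margin. It was called lower with a variance trend (adjusted p = 0.0366) and its sign turned after quantile normalization over the annotated genes (0.02 on the log2 scale). BRD2 was the only one of these genes with several probe sets, and its dimmer probe set gave -0.12 ± 0.05.

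**Figure D2:**
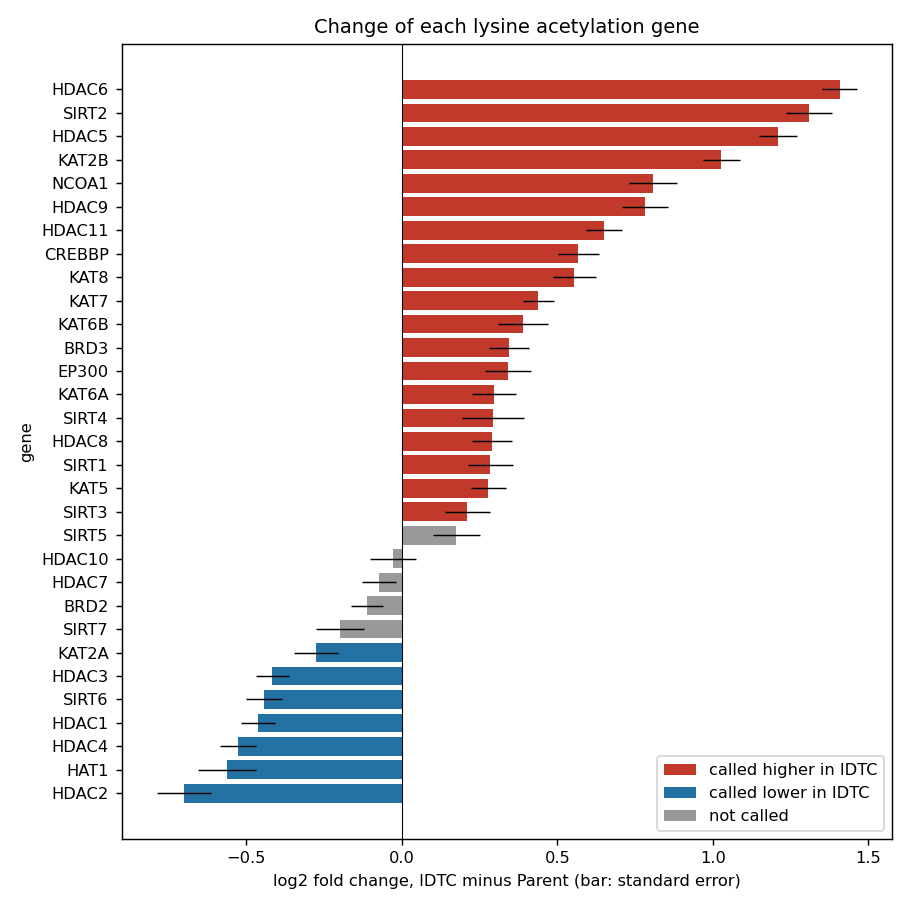
Log2 fold change, IDTC minus Parent (x axis, bars with their standard error), of the 31 genes ordered by change. Red bars were called higher in IDTC (19 genes), blue bars lower (7 genes) and grey bars were not called (5 genes). The range runs from 1.41 for HDAC6 to -0.70 for HDAC2.

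Close relatives were then compared within each array, as the difference between the genes of a pair, which cancels any shift of a whole array. Of 10 pairs, 8 had IDTC and Parent arrays that did not overlap. Among single genes 54.1% did not overlap, and no such share was computed over other pairs, so this count is a description. An exact permutation test (2-sided) gave p = 0.1 for each of these 8, the smallest that 3 against 3 arrays allow, and an adjusted p of 0.125 over the 10 pairs, so no pair could pass 0.05. In 2 pairs 1 gene rose and the other fell. The change of HDAC4 minus that of HDAC5 was -1.74, with within-array differences of -1.60 to -1.45 in IDTC and 0.20 to 0.23 in Parent arrays. For KAT2A minus KAT2B it was -1.30, with differences of -1.91 to -1.69 in IDTC and -0.62 to -0.38 in Parent arrays. The value was 1.44 for HDAC6 minus HDAC10 and -0.85 for HDAC7 minus HDAC9. Smaller gaps were found for BRD2 minus BRD3 (-0.46), HDAC1 minus HDAC2 (0.24), SIRT6 minus SIRT7 (-0.25) and CREBBP minus EP300 (0.23). For KAT6A minus KAT6B the differences ran from 0.45 to 0.48 in IDTC and from 0.38 to 0.69 in Parent arrays and overlapped (exact permutation p = 0.4). SIRT4 and SIRT5 overlapped too (exact permutation p = 0.5). The pair of NCOA1 and NCOA3 was not analysed here.

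**Figure D3:**
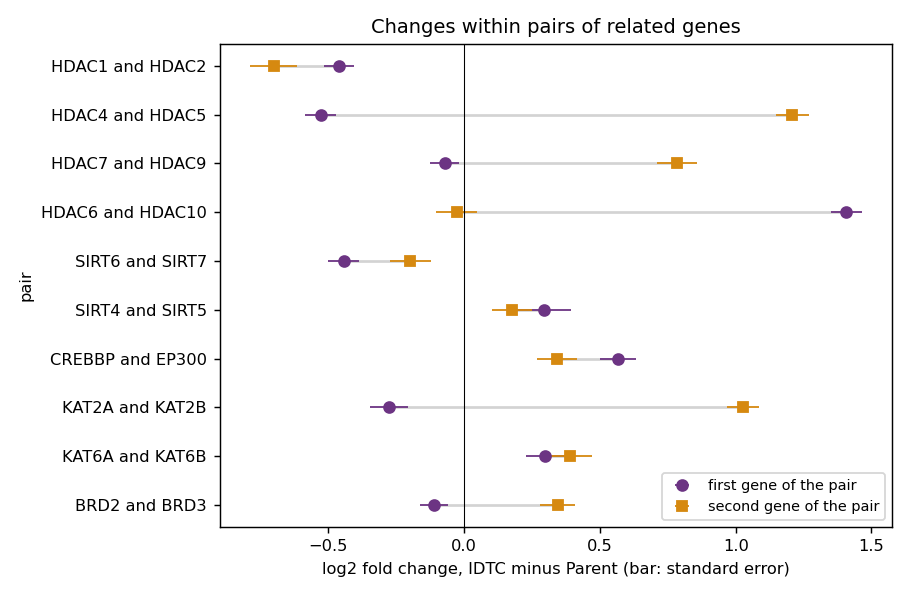
Log2 fold change, IDTC minus Parent, with its standard error (x axis), of both genes in 10 pairs of relatives. Circles are the gene named first and squares the gene named second, joined by a grey line. The longest lines are those of HDAC4 and HDAC5, HDAC6 and HDAC10, and KAT2A and KAT2B.

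Partners of these enzymes were read from lists of the pathway, whose counts stand beside 46.6% of all genes called (21.7% higher, 24.9% lower) and 69.2% of genes called without the dimmest 40%. The share of 69.2% is from a separate fit of the brighter genes, in which the lists were not counted. Among 34 measured subunits of the HDAC1, HDAC2 and HDAC3 corepressor complexes, 8 rose, 12 fell and 14 missed the threshold (median -0.06 on the log2 scale, against -0.01 over all genes). ING2, a SIN3 subunit that binds methylated histone H3, fell by 1.05 ± 0.08, CORO2A of the NCOR complex by 0.78 ± 0.07 and the NuRD subunit MTA2 by 0.71 ± 0.05, while the NuRD helicase CHD3 rose by 0.72 ± 0.05. Among 15 partners of class IIa deacetylases, 5 rose, 4 fell and 6 were not called (median -0.06). MEF2C, a transcription factor that these deacetylases hold silent, measured 10.61, 10.64 and 10.49 in IDTC arrays, against 9.52, 9.43 and 9.50 in Parent arrays, and rose by 1.09 ± 0.06. PRKD1 and PRKD3, kinases that drive class IIa deacetylases out of the nucleus, rose by 0.96 ± 0.07 and 0.68 ± 0.06. The 14-3-3 gene YWHAG, whose product holds the phosphorylated deacetylases in the cytoplasm, fell by 0.97 ± 0.05.

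Of 50 measured subunits of acetyltransferase complexes, 19 rose, 17 fell and 14 were not called (median 0.05), so that 72% were called. The 69.2% among the brighter genes is from the separate fit, in which these subunits were not counted. ING4, a subunit of the KAT7 complexes that reads methylated histone H3, measured 9.54, 9.58 and 9.69 in IDTC arrays, against 7.44, 7.57 and 7.52 in Parent arrays, and rose by 2.09 ± 0.06 (adjusted p = 6.02e-07). CITED2, which binds CBP and p300 and competes with HIF1A for them, rose by 1.84 ± 0.06. RUVBL1, an ATPase of the NuA4 complex and of other assemblies, fell by 1.53 ± 0.07, and ACTL6A, an actin-related subunit shared with SWI/SNF complexes, fell by 0.96 ± 0.06. Among 12 other acetyltransferases 5 rose and 5 fell (median 0.03). NCOA2, a relative of NCOA1, rose by 1.05 ± 0.09, whereas NAT10, which acetylates RNA, ESCO2, which acetylates cohesin in S phase, and NAA50, which acetylates protein ends, fell by 0.94 ± 0.06, 0.94 ± 0.08 and 0.74 ± 0.05.

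Among 31 other genes with bromodomains, YEATS domains and related acetyl-lysine readers, 13 rose, 6 fell and 12 were not called (median 0.13). ATAD2, a bromodomain ATPase linked to proliferation, fell by 1.29 ± 0.08. BPTF, the reader subunit of the NURF remodeller, rose by 0.98 ± 0.09, SP100 by 0.85 ± 0.10 and the SWI/SNF ATPase gene SMARCA2 by 0.78 ± 0.07. In the BET and P-TEFb axis 7 of 10 genes were not called (median -0.05). CDK9, the kinase of P-TEFb, measured 9.81, 9.73 and 9.67 in IDTC and 9.81, 9.92 and 9.91 in Parent arrays (adjusted p = 0.109). Of its genes only the elongation factor gene ELL2 rose (0.49 ± 0.06), and ELL and MEPCE fell by 0.22 ± 0.06 and 0.20 ± 0.05.

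Of 18 genes of acetyl-CoA and NAD supply or use, 10 fell, 2 rose and 6 were not called (median -0.18). Of all genes 24.9% fell, and of the brighter genes 39.6%. Of the 8 acetyl-CoA genes 6 fell and none rose, and of the 10 NAD genes 4 fell, 2 rose and 4 were not called. The NAD genes include NADK, NNMT, PARP1 and CD38, which use up NAD or its precursor. NADK (-0.15 ± 0.05) and NNMT (-0.50 ± 0.09) fell, while PARP1 and CD38 were not called. The NAD counts are therefore not of supply alone. DLAT, the acetyltransferase subunit of pyruvate dehydrogenase, fell by 1.26 ± 0.07. ACLY, which makes nuclear and cytosolic acetyl-CoA from citrate, measured 9.18, 9.18 and 9.07 in IDTC arrays, against 10.18, 10.13 and 10.18 in Parent arrays, and fell by 1.02 ± 0.06 (adjusted p = 6.33e-06). ACSS2, which makes acetyl-CoA from acetate, fell by 0.73 ± 0.06 and SLC25A1, which exports citrate from mitochondria, by 0.68 ± 0.06. NAMPT, the rate-limiting enzyme of NAD salvage on which sirtuins depend, fell by 0.36 ± 0.06. The NAD genes that rose were NADSYN1 (0.30 ± 0.05, adjusted p = 0.00282) and NAPRT (0.18 ± 0.05, adjusted p = 0.0165), which make NAD by other routes. NAMPT, NADSYN1, NAPRT, NADK, NNMT, PARP1, CD38 and CDK9 are named outside the rule for named genes and were chosen after their values were seen.

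**Figure D4:**
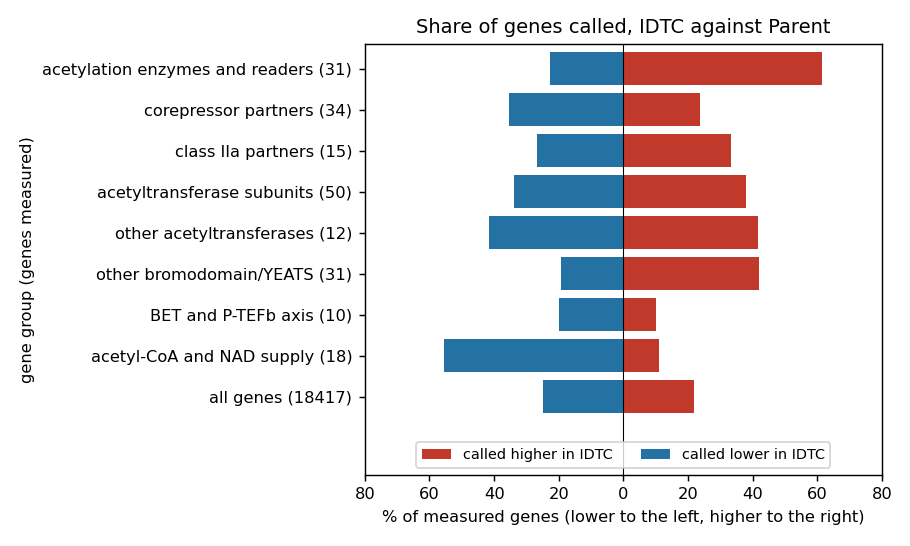
Share of measured genes called higher (red, to the right) and lower (blue, to the left) in IDTC against Parent, in percent (x axis), for the 31 acetylation enzymes and readers, 7 lists of their partners and all 18417 genes. The 31 genes have the longest bar to the right and the acetyl-CoA and NAD genes the longest to the left.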

How the data were processed

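The 6 samples were hybridised to whole-transcript arrays. The deposited table holds log2 expression for 33297 probe sets, already normalized by the authors; RMA, Affymetrix Expression Console and Partek 6.6 are listed, without roles, per the submitters' processing notes. The table gives no detection call, and the number of arrays limits precision. Array medians were 6.29, 6.29 and 6.36 (IDTC) and 6.25, 6.32 and 6.32 (Parent). The platform annotation gave 1 symbol to 19460 probe sets and several to 1754, and did not list 12083; 19429 of the named ones matched GRCh38.p14 gene records. Groups came from sample titles.

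The test was 2-sided, with eBayes after lmFit (limma 3.58.1, R 4.3.3) on 18417 genes, with no covariates or filter. On simulated data for this comparison over 18417 genes, the share recovered was 64% at a change of 0.5 log2, 92% at 1 and 100% at 2 (50 genes each). In the simulation 15 unchanged genes were called. Far fewer genes were changed in it than the 46.6% called in the data. The adjusted p was therefore stricter there, and these shares do not give the sensitivity of this comparison. The genes described and the lists were chosen with earlier results of these data known. All 31 genes of the rule are named, and from each partner list up to 4 called genes with the largest absolute change. No set test was run. Alternatives were scaling, the filter on dim genes, the choice of probe set, the variance model, the replicate block and leaving out each array. Promoters are from RefSeq (GRCh38.p14).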

Additional observations from a re-analysis of the deposited data

How the results depend on the processing

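Under 14 alternatives, 2 of them (scaling over the annotated genes alone) added after seeing the data, between 17 and 20 of the genes rose and between 6 and 8 fell, and their median log2 fold change was 0.25 to 0.37. Leaving out 1 array at a time gave 17 to 19 higher, 6 to 8 lower and 0.25 to 0.32. Of 26 genes called, 22 were called in the same direction under each alternative that tested them (HDAC9 and SIRT4 were left out with the dimmest 40% of genes); the exceptions were KAT2A, SIRT1, SIRT3 and SIRT4. Over the alternatives the limma adjusted p ran from 0.00605 to 0.0819 for KAT2A, 0.00381 to 0.058 for SIRT1, 0.0178 to 0.143 for SIRT3 and 0.00385 to 0.15 for SIRT4, and among genes not called from 0.0226 to 0.223 for SIRT7, 0.0271 to 0.231 for SIRT5 and 0.0366 to 0.797 for BRD2. SIRT3 was lost after re-centring on array medians (adjusted p = 0.0538). SIRT4 was lost after quantile normalization over all probe sets (0.0748) or over the annotated genes (0.0529) and with a variance trend (0.0537). BRD2 was called with that trend (0.0366). HDAC10, which was not called, turned sign after quantile normalization (0.0091), re-centring on the annotated genes (0.035), quantile normalization over them (0.040), without IDTC 3 and without Parent 3 (leaving out each array gave -0.086 to 0.019), and BRD2 did so after quantile normalization over the annotated genes (0.017). All genes split into 3996 higher and 4592 lower, and into 4846 and 4017 after re-centring on the annotated genes. Arrays of the groups share only replicate numbers. Deviations of same-numbered arrays correlated at 0.31, -0.19 and 0.26. Differently numbered arrays were not compared, so these values do not settle whether the arrays were paired. A replicate block gave 19 higher and 7 lower genes and 8855 called over all genes, against 8588 without it. With 3 arrays per group, changes near 0.2 log2 were called for some genes and not for others. SIRT7 (-0.20 ± 0.08) was not called, while SIRT3 (0.21 ± 0.07), MEPCE (-0.20 ± 0.05) and NAPRT (0.18 ± 0.05) were called.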

Other observations

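The tubulin deacetylase genes HDAC6 and SIRT2 had the largest increases of the 31 genes (1.41 ± 0.06 and 1.31 ± 0.07), and ATAT1, which encodes the tubulin acetyltransferase and was chosen after its value was seen, also rose, with values of 8.13, 7.95 and 8.01 in IDTC arrays against 7.41, 7.55 and 7.56 in Parent arrays (0.53 ± 0.07, limma adjusted p = 0.00058). Protein levels and acetylation were not measured on these arrays.

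Some values were exactly equal on 2 or more arrays of a group. This held for 3 of the 31 genes (9.68%) and for 15.1% of all genes. For EP300 and KAT5 it concerned a pair of Parent arrays and for SIRT5 a pair of IDTC arrays.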
